A study of Mus musculus with 4 samples.

Results

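The tumour necrosis factor (TNF) superfamily was examined on 4 microarrays of bronchoalveolar lavage fluid (BALF) cells from bleomycin-treated mice. The set held 36 genes, 17 ligands and 19 receptors, chosen by name and found on the array through the accession of each probe. A probe was present for 35 of them, out of 20832 named genes, and where a gene had several probes the brightest was used. Only Tnfsf13, the ligand APRIL, had no probe matched here.

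The study asked how loss of S1pr2, a receptor for sphingosine-1-phosphate, changed gene expression in BALF cells during lung fibrosis. Wild-type mice (2 arrays) were compared with S1pr2-/- mice (2 arrays), which carry a germline disruption of S1pr2 in all cells. Both groups were littermates on a mixed background backcrossed a single time to C57BL/6J, were young adults, and received intraperitoneal bleomycin, a drug that injures the lung, at 0.035 U/g 2 times a week until cells were collected on day 22. No array of saline-treated mice was analysed here. The methods name independent RNA samples, but pooling of mice before hybridisation was not described in the sources used here, so the p-values measure the spread between these arrays only.

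The targeted gene did not follow its label. S1pr2 read -0.13 and -0.16 in wild-type cells against 2.67 and 2.54 in cells labelled S1pr2-/-, in log2 units of signal relative to the 75th percentile of the array. It was therefore 6.72-fold higher on the arrays labelled S1pr2-/- (log2 fold change 2.75 ± 0.07, SE; limma adjusted p = 0.335). Whether its only probe lies in the disrupted part of the gene was not given in the sources used here, and every direction below is that of the arrays as labelled.

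The cells were labelled alveolar macrophages, and all 10 alveolar macrophage markers were above background on all 4 arrays. Marco, a scavenger receptor of these cells, read 6.69 and 6.85 on the wild-type arrays against 6.74 and 6.72 on the arrays labelled S1pr2-/-. Markers of other cells were present too, including all 12 measured T cell markers and all 8 B and plasma cell markers examined above background on every array. Of 8 eosinophil markers, 6 were lower by over 1.5-fold with an unadjusted p under 0.05 (background 1.93%) and 0 were called after adjustment. Siglecf and Ear1, which alveolar macrophages also express, differed by -0.15 and -0.07. The summed level of the list overlapped, at 118 to 141 against 101 to 119 in cells labelled S1pr2-/-. Siglecf and Ear1 made up most of that sum, so it says little about the other 6. The granule major basic protein Prg2 was among the 6, with a log2 fold change of -5.32 ± 0.81 (SE; arrays labelled S1pr2-/- minus wild-type; limma adjusted p = 0.508). In RNA from mixed cells, fewer cells of a type and less RNA per cell cannot be told apart. Of the probes on each array, 67.6% to 72.1% were above background, and 0 spots were saturated.

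TNF superfamily ligands are mostly membrane proteins that act as trimers, some of them also after shedding, and bind receptors with cysteine-rich domains. Receptors with a death domain, such as Fas and the TNF receptor TNFR1, can start cell death. Others recruit TRAF adaptors and activate NF-kB, and many of these, such as OX40, GITR and CD27, deliver costimulatory signals to T cells. In the lung, macrophages are a major source of TNF, while lymphocytes carry many of the other ligands and receptors.

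The promoters of the 4 genes with the largest differences among those above background on all arrays are shown first. Each window is the 250 bases before the RefSeq transcription start (GRCm38.p6), 5′ to 3′ on the strand of the gene, and capitals mark matches to the NF-kB consensus or to a STAT6-type motif (TTC and GAA around 4 unspecified bases), searched on both strands. Tnfsf14 lies at chr17:57194182-57194431, minus strand, Tnfrsf4 at chr4:156013445-156013694, plus strand, Tnfsf11 at chr14:78308044-78308293, minus strand and Ltb at chr17:35194257-35194506, plus strand.
Tnfsf14: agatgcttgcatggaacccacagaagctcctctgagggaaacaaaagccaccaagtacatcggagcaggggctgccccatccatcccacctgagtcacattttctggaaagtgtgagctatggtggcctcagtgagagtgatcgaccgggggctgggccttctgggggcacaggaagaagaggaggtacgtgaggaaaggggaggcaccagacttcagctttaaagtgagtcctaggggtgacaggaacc
Tnfrsf4: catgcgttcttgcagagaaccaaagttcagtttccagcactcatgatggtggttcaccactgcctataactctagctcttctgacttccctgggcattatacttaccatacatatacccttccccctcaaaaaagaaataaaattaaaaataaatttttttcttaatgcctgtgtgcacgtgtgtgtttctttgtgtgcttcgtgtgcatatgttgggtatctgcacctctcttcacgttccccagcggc
Tnfsf11: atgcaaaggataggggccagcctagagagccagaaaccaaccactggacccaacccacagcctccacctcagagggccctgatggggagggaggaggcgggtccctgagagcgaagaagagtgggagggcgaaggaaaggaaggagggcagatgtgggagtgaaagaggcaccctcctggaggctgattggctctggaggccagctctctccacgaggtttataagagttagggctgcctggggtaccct
Ltb: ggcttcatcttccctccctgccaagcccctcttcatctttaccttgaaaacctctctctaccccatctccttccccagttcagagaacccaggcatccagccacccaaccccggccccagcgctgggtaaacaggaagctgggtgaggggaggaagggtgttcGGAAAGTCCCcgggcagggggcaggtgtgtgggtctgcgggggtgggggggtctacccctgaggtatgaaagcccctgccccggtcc
Of these 4 windows, Ltb alone held a match, GGAAAGTCCC, an NF-kB consensus match at bases -87 to -78. Among 31 windows of 28 members, 3 held the NF-kB consensus (Ltb, Tnfrsf8 and Tnfrsf9), against 3.90% of 32841 promoters of the same length. The STAT6-type motif was found in 4 windows (Lta, Ltbr and both windows of Tnfsf13b) and in 5.85% of all promoters. The windows of Tnfsf13b overlap, and their matches are the same site. The absence of a match says only that these letters were not in the window.

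Most members gave lower values on the arrays labelled S1pr2-/-, but none passed the test across all probes. Of the 35 genes with a probe, 31 were above background on all 4 arrays and 32 were tested. Their log2 fold changes were below 0 for 24 genes and above 0 for 7, and the remaining gene, Tnfsf18, was at the floor on all arrays. With limma and Benjamini-Hochberg adjustment over 27158 probes, 0 members were called in either direction (background 0% of 15410 named genes tested, in each direction), and their adjusted p ranged from 0.508 to 1. At an unadjusted p under 0.05, 3 members were lower and 0 higher, against 5.96% and 4.56% of the named genes tested, and the methods' t-test adjusted in the same way also called 0. An exact two-sided permutation test of 2 arrays against 2 cannot go below 0.33.

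The median log2 fold change was -0.28 over the 32 tested members, -0.32 over 14 ligands and -0.22 over 18 receptors, and it was 0 over all named genes tested, of which 49.5% were lower and 49.6% higher. Both arrays labelled S1pr2-/- lay below both wild-type arrays for 15 members (background 21.9%) and above them for 3 (background 22.2%). The rule of the study's methods, a fold over 1.5 with an unadjusted p under 0.05, here with the p from limma, was met by 3 members in the lower direction (background 1.93%) and 0 in the higher (background 0.578%). Those 3 were Tnfsf14, Tnfrsf4 and Tnfrsf18, and with the fold alone Ltb, Tnfsf11 and Tnfrsf13c made 6 (background 4%), with 0 higher (background 1.28%). With the methods' t-test, and with the replicate number as a block, 0 members met the rule.

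**Figure D1:**
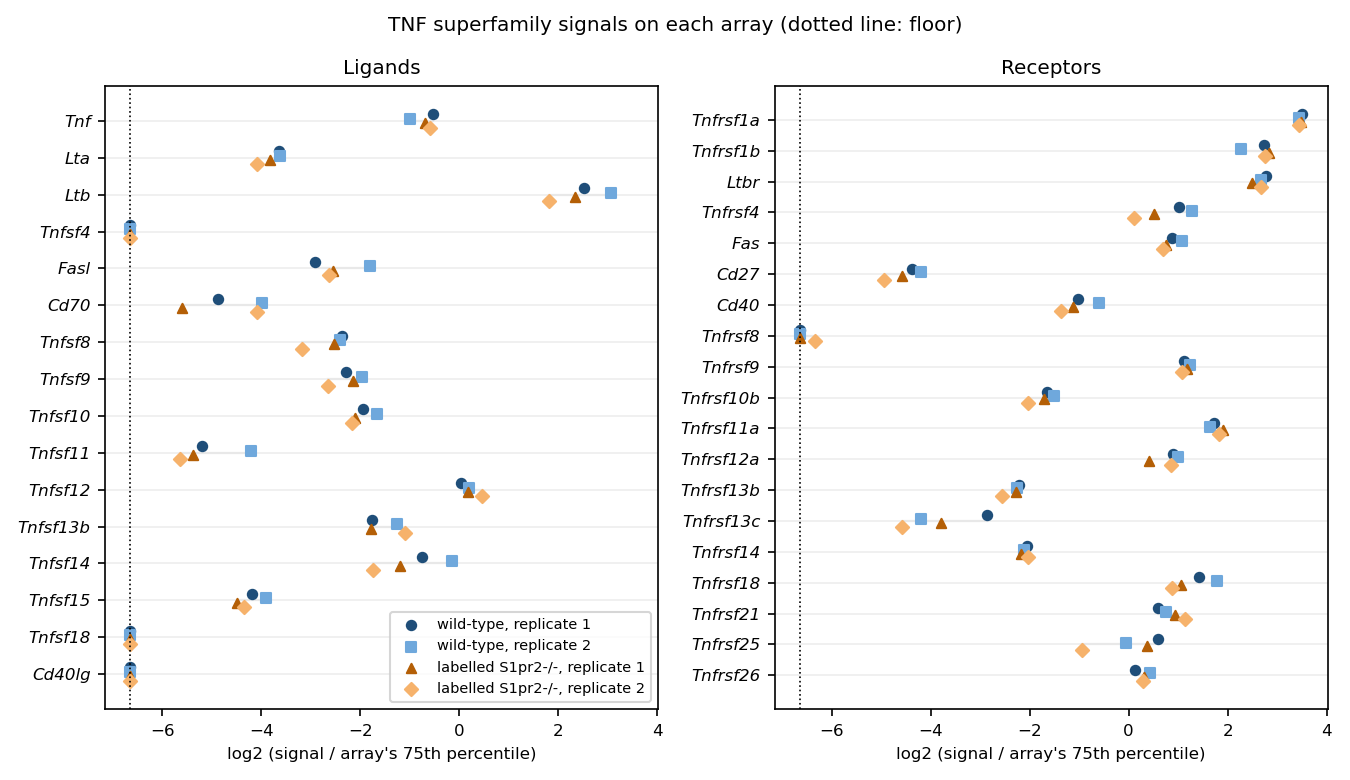
Log2 signal relative to the 75th percentile of the array (x axis) for the 16 ligands and 19 receptors with a probe, with 1 point for each of the 4 arrays and a dotted line at the floor. Tnfsf4, Tnfsf18 and Cd40lg sit on the floor on all arrays, and both wild-type points of Tnfrsf4 and Tnfrsf18 lie above both points labelled S1pr2-/-.

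Among the ligands, Tnfsf14, also called LIGHT, which binds HVEM and the lymphotoxin beta receptor, had the largest difference. It read -0.75 and -0.15 in wild-type cells against -1.20 and -1.73 in cells labelled S1pr2-/-. The groups did not overlap, and the gene was 2.02-fold lower (log2 fold change -1.02, 95% interval -1.98 to -0.05; limma adjusted p = 0.518). The study lists this gene from the same arrays, so its direction here is not independent evidence. With each array left out in turn, its log2 fold change ranged from -1.32 to -0.71.

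Ltb, lymphotoxin beta, the membrane anchor of the lymphotoxin heterotrimer, read 2.53 and 3.07 in wild-type cells against 2.35 and 1.81 in cells labelled S1pr2-/-. It was lower on both of the latter arrays (log2 fold change -0.72 ± 0.30, SE; limma adjusted p = 0.553). Lta, the other lymphotoxin chain, read -3.64 and -3.63 against -3.83 and -4.08. Its groups did not overlap either, with a difference of -0.32 ± 0.11. Tnf, which lies between Ltb and Lta on chromosome 17 with 0 protein-coding genes between neighbours, differed in its pattern. It read -0.53 and -0.99 in wild-type cells against -0.69 and -0.59 in cells labelled S1pr2-/-. The groups overlapped, and the interval of the log2 difference was -0.46 to 0.70.

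Tnfsf11, or RANKL, the osteoclast differentiation ligand also made by activated T cells, read -5.20 and -4.21 in wild-type cells against -5.38 and -5.64 in cells labelled S1pr2-/-. The difference was -0.80 ± 0.41 log2 units, and without wild-type replicate 2 it was -0.31. The groups also did not overlap for 3 ligands with smaller differences. Tnfsf8, the CD30 ligand, differed by -0.47 ± 0.26, Tnfsf15, or TL1A, by -0.38 ± 0.14, and Tnfsf10, the death ligand TRAIL, by -0.33 ± 0.12.

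For the remaining ligands the groups overlapped. Fasl, the ligand of Fas, read -2.91 and -1.80 on the wild-type arrays against -2.56 and -2.63, so that wild-type replicate 2 alone stood high. Cd70, the CD27 ligand, was uneven within the arrays labelled S1pr2-/- (-5.60 and -4.08), its difference between groups was -0.41 ± 0.69, and the interval ran from -2.50 to 1.69. Tnfsf9, the 4-1BB ligand, differed by -0.27 ± 0.23. Tnfsf12, or TWEAK, differed by 0.20 ± 0.13 and Tnfsf13b, the B cell survival factor BAFF, by 0.07 ± 0.34. A second, dimmer probe of Tnfsf12 was higher on both arrays labelled S1pr2-/-, by 0.33. Tnfsf4, the OX40 ligand, and Cd40lg, the CD40 ligand, were not above background on any array and were not tested.

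**Figure D2:**
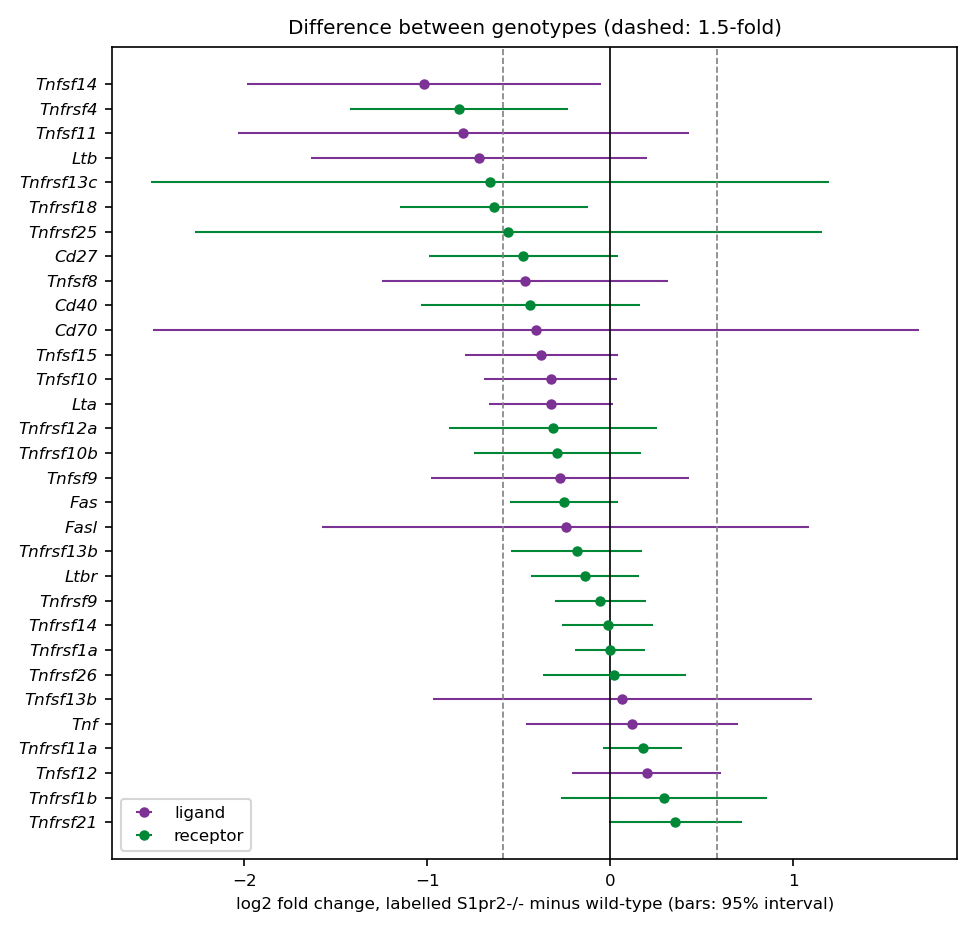
Log2 fold change of the 31 tested members not at the floor, arrays labelled S1pr2-/- minus wild-type arrays, with 95% intervals from limma and dashed lines at 1.5-fold. The intervals of Tnfsf14, Tnfrsf4 and Tnfrsf18 lie below 0, and those of Tnfrsf13c, Cd70 and Tnfrsf25 are wide.

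Among the receptors, the 2 with the smallest p were the T cell costimulatory receptors OX40 (Tnfrsf4) and GITR (Tnfrsf18), both known from activated and regulatory T cells. Tnfrsf4 read 1.01 and 1.28 in wild-type cells against 0.52 and 0.11 in cells labelled S1pr2-/-. It was 1.78-fold lower with no overlap (log2 fold change -0.83, 95% interval -1.42 to -0.23; limma adjusted p = 0.508). Tnfrsf18 read 1.42 and 1.79 against 1.06 and 0.88. It was 1.55-fold lower, again with no overlap (log2 fold change -0.63, 95% interval -1.15 to -0.12; limma adjusted p = 0.514). These genes are neighbours on chromosome 4 with 0 protein-coding genes between them. With each array left out in turn, the log2 fold change of Tnfrsf4 ranged from -1.03 to -0.63 and that of Tnfrsf18 from -0.82 to -0.45.

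The members past the rule were looked at again with each array left out. In these fits 1 genotype has a single array, assumed to vary like the 2 arrays of the other, so the p-values rest on the spread of that other genotype. Shares over all named genes were taken for the fit of all 4 arrays only, so counts past the rule are not given for these fits. The log2 fold change of Ltb ranged from -0.99 to -0.45 and that of Tnfsf11 from -1.30 to -0.31. No gene met the rule in all 4 of these fits.

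**Figure D3:**
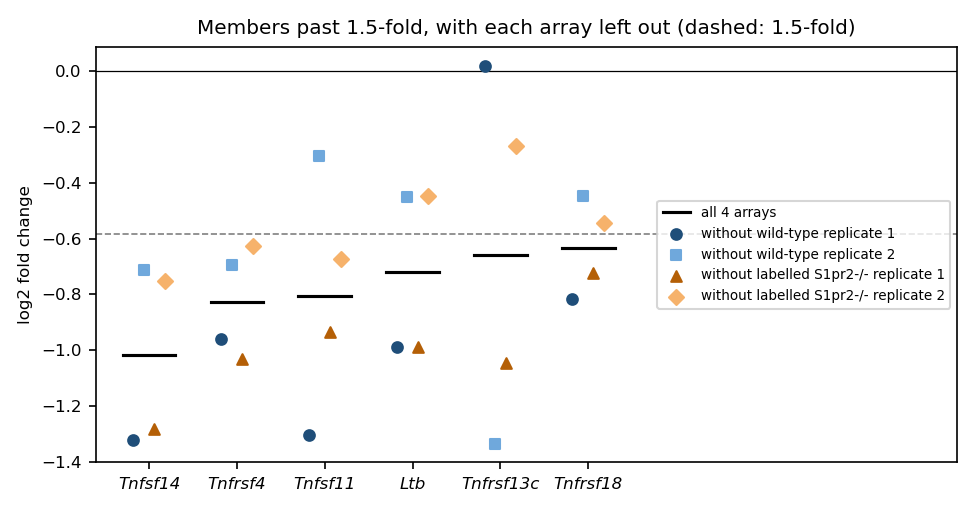
Log2 fold change (y axis) of the 6 members lower by over 1.5-fold, with all 4 arrays (black line) and with each array left out (points). Tnfrsf13c moves from -1.33 to 0.02, while the points of Tnfsf14 and Tnfrsf4 stay below the dashed 1.5-fold line.

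Among further receptors known from lymphocytes, 0 were called. Cd27, a costimulatory receptor, differed by -0.48 ± 0.17 and Cd40, carried by B cells, dendritic cells and macrophages, by -0.44 ± 0.20, both with groups that did not overlap. Tnfrsf13c, the BAFF receptor of B cells, read -2.85 and -4.21 in wild-type cells against -3.80 and -4.58 in cells labelled S1pr2-/-. Wild-type replicate 1 alone was high, and without it the log2 fold change went from -0.66 to 0.02. A second probe of Tnfrsf13c gave 0.19. Tnfrsf25, the TL1A receptor, read 0.59 and -0.05 against 0.36 and -0.93, with S1pr2-/- replicate 2 low and the groups overlapping. Tnfrsf13b, the receptor TACI, differed by -0.18 ± 0.12. Tnfrsf8, or CD30, was above background on 1 array and was not tested.

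The receptors of TNF itself are TNFR1 and TNFR2. Tnfrsf1a (TNFR1) read 3.51 and 3.44 in wild-type cells against 3.49 and 3.45 in cells labelled S1pr2-/-. The 4 values lay close together, and the interval of the fold ratio was 0.874 to 1.14. A second, dimmer probe of the gene was higher on both arrays labelled S1pr2-/-, by 0.13. Tnfrsf1b (TNFR2) read 2.73 and 2.28 against 2.84 and 2.76 and was higher on both arrays labelled S1pr2-/-, by 0.29 ± 0.19 (limma adjusted p = 0.639). The other 2 members higher with no overlap were Tnfrsf21 (DR6), a death domain receptor, by 0.36 ± 0.12, and Tnfrsf11a (RANK), the receptor of RANKL, by 0.18 ± 0.07.

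The remaining receptors were lower in value or close to the wild-type arrays. Fas, a death domain receptor, differed by -0.25 ± 0.10 and Tnfrsf10b, a TRAIL receptor, by -0.29 ± 0.15, with no overlap in either. Tnfrsf12a, the TWEAK receptor Fn14, read 0.90 and 1.01 against 0.42 and 0.86. Ltbr, the lymphotoxin beta receptor, differed by -0.14 ± 0.10 with overlapping groups. For Tnfrsf9 (4-1BB) and Tnfrsf14 (HVEM), the intervals of the fold ratio were 0.81 to 1.15 and 0.834 to 1.18. A second, dimmer probe of Tnfrsf9 differed by -0.25, with no overlap. That of Tnfrsf14 differed by -0.38 ± 0.34, with overlapping groups. Tnfrsf26 differed by 0.02 ± 0.13. Of the 7 members with several probes, the probes differed in sign for Tnfrsf13c and Tnfrsf1a.

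Ligands and receptors that bind each other were set side by side. Tnfsf14 had a log2 fold change of -1.02 while its receptors Tnfrsf14 and Ltbr differed by -0.01 and -0.14, and Ltb, which also binds Ltbr, differed by -0.72. Tnfsf11 differed by -0.80 and its receptor Tnfrsf11a by 0.18. Tnfsf12 differed by 0.20 and its receptor Tnfrsf12a by -0.31, and Tnfsf13b by 0.07 and its receptors Tnfrsf13c and Tnfrsf13b by -0.66 and -0.18. Both partners were lower in value for Tnfsf15 and Tnfrsf25 (-0.38 and -0.56), Cd70 and Cd27 (-0.41 and -0.48), Fasl and Fas (-0.24 and -0.25), Tnfsf10 and Tnfrsf10b (-0.33 and -0.29), and Tnfsf9 and Tnfrsf9 (-0.27 and -0.05). Of these genes, Tnfrsf25, Cd70, Fasl, Tnfsf9 and Tnfrsf9 had overlapping groups. A shared lower sign is common here, since 24 of the 32 tested members were below 0. For Tnf the values were 0.12 for the ligand, -0.0031 for Tnfrsf1a and 0.29 for Tnfrsf1b. No difference between a ligand and its receptor was tested. The ligands of OX40 and GITR, Tnfsf4 and Tnfsf18, were at the floor on all arrays, though Tnfsf18 was above background on 3 of them.

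Downstream genes gave small differences. Of 48 genes in 5 lists of adaptors, NF-kB components, inhibitors, cell death genes and shedding factors, 0 were called at an adjusted p under 0.05. At an unadjusted p under 0.05, 8 were lower and 0 higher, against 5.96% and 4.56% of the named genes tested, and 0 passed 1.5-fold in either direction, against 4% and 1.28%. Their median log2 fold change was -0.10. The adaptors and ubiquitin ligases held 6 of the 8 lower genes, Traf1, Traf2, Traf3, Traf4, Traf5 and Birc2, with a median of -0.21 over the 12 genes. Traf4, an adaptor of the TRAF family, read -1.32 and -1.33 in wild-type cells against -2.0 and -1.77 in cells labelled S1pr2-/- (log2 fold change -0.56 ± 0.10; limma adjusted p = 0.508). The medians were -0.10 for the 12 NF-kB kinases and subunits, -0.15 for the 9 inhibitors and feedback genes, 0.01 for the 10 death receptor genes and 0.07 for the 5 shedding genes and cofactors.

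Of 10 further family members outside the set, 7 were tested and 0 were called. Ngfr, a neurotrophin receptor of the family, read -3.08 and -3.34 in wild-type cells against -2.13 and -2.65 in cells labelled S1pr2-/-. It was higher on both of the latter, by 0.82 ± 0.23 (limma adjusted p = 0.517).

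**Figure D4:**
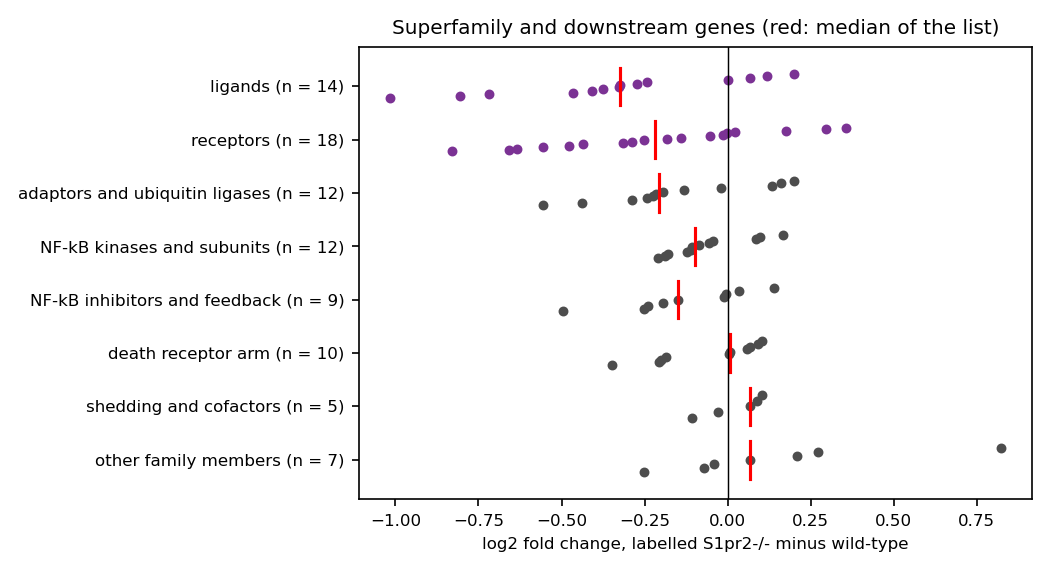
Log2 fold change (x axis) of each tested gene, by list, with the number of genes in each list and its median as a red line. The medians of the ligands and receptors lie at -0.32 and -0.22, and those of the downstream lists between -0.21 and 0.07.

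The array on which a gene was lowest or highest was not evenly spread over the members. S1pr2-/- replicate 2 had the lowest value for 17 of 32 members, against 23.8% of the named genes tested, and wild-type replicate 2 had the highest for 18, against 21.2%. The T cell markers shared this pattern, 11 of 12 being lowest on S1pr2-/- replicate 2 and 8 of 12 highest on wild-type replicate 2. Among cell type lists, only the T cell list and the B and plasma cell list were tallied in this way. Markers of other cells, such as Prg2 and Marco, were also highest on wild-type replicate 2, so that trait was not particular to T cells. The summed level of the T cell markers relative to the 75th percentile was 30.6 and 33.9 in wild-type cells against 28.0 and 19.7 in cells labelled S1pr2-/-. All 12 had log2 fold changes below 0, with a median of -0.49, 7 with no overlap (background 21.9%), and 0 were called. Cd28 differed by -0.87 ± 0.19, Lck by -0.77 ± 0.19 and Cd3e by -0.32 ± 0.22. The part of T cell RNA in the values of Tnfrsf4, Tnfrsf18, Ltb and Tnfsf14 was not tested.

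Lists of other cells gave unlike patterns. The group 2 innate lymphoid cell list had 7 of 7 log2 fold changes below 0, a median of -0.68, and sums of 5.27 to 8.09 against 3.12 to 4.78. Gata3 and Il7r of that list are also expressed by T cells. The B and plasma cell list was mixed, with 5 of 8 log2 fold changes below 0 and 3 above. Of the 8, 5 were highest on wild-type replicate 1, as Tnfrsf13c was. This array was highest for 7 of the 32 members and for 4357 of the 15410 named genes tested. Pax5 and Blk differed by 0.86 and 0.23, and Jchain, the joining chain of secreted antibodies, was higher on both arrays labelled S1pr2-/- (2.13 ± 0.47; limma adjusted p = 0.508). Ms4a1 read -1.40 and -3.10 in wild-type cells against -3.04 and -3.41 in cells labelled S1pr2-/-. The neutrophil list had 6 log2 fold changes below 0 and 1 above, S100a8 (0.25). Its summed level was 82.4 to 92.4 against 57.4 to 66.6, with its brightest gene Csf3r at -0.28 and Retnlg at -4.81. The summed level of the alveolar macrophage list was 764 to 846 against 732 to 821, so that its groups overlapped. The NK cell list had 4 log2 fold changes below 0 and 3 above, with a median of -0.03. Epithelial cell markers had 7 log2 fold changes below 0 and 2 above, with a median of -0.34. For 6 of these 9 markers the groups did not overlap, all in the lower direction (background 21.9%). The dendritic cell list was mixed, with 4 log2 fold changes below 0 and 3 above. Its summed level was 64.2 to 67.4 against 55.0 to 56.1. That sum mostly follows its brightest gene, Siglech, which read 5.82 and 5.66 against 5.50 and 5.55. The monocyte-derived macrophage list had a median of 0.43, with overlapping sums. The part of these cells in the members' values was not tested.

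**Figure D5:**
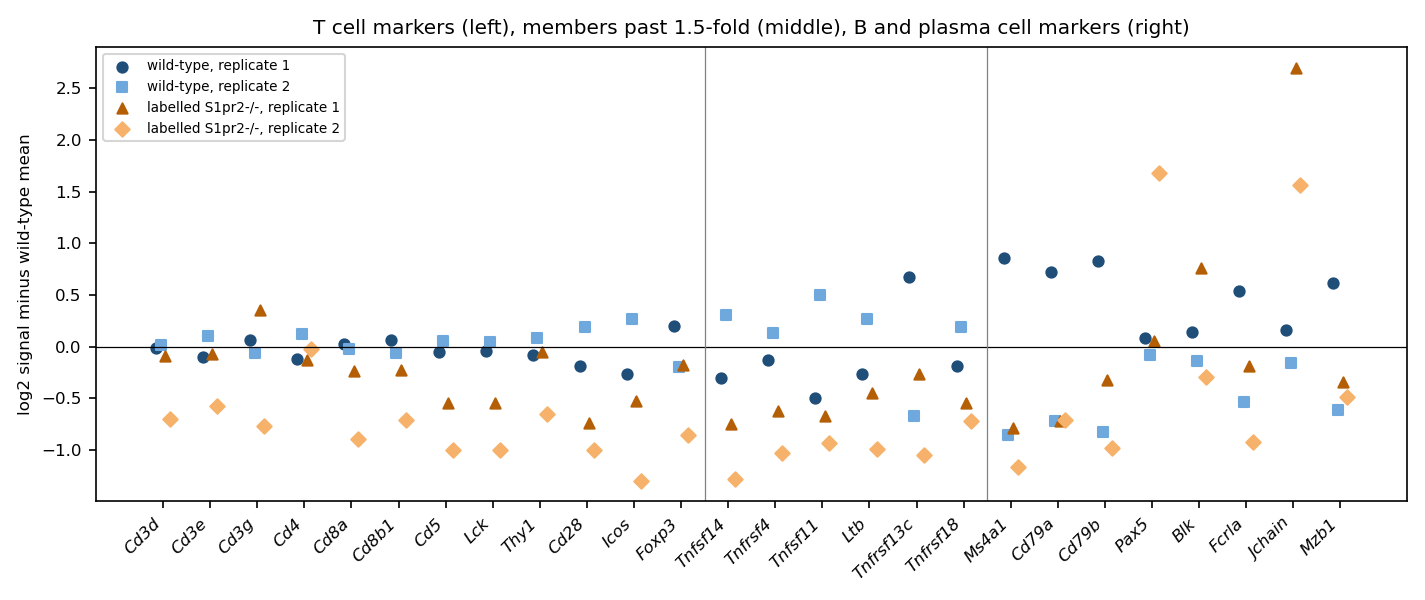
Log2 signal minus the wild-type mean (y axis) on each array for all 12 T cell markers, the 6 members lower by over 1.5-fold and all 8 B and plasma cell markers examined. 11 of the T cell markers are lowest on S1pr2-/- replicate 2. Tnfrsf13c is highest on wild-type replicate 1, as are 5 of the B and plasma cell markers and 4357 of the 15410 named genes tested.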

How the data were processed

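RNA of BALF cells was hybridised to 1-colour Agilent whole mouse genome arrays, 2 for each genotype, which shared 1 slide and 1 scan time. The scanner intensity files deposited by the authors came from Agilent Feature Extraction, version 10.7.3.1 per the labels and 11.0.1.1 per the file headers, and hold processed intensities not normalized between arrays. The authors' deposited table holds log2 values scaled to the 75th percentile and centred on the wild-type arrays, and 99.5% of its probes matched the values computed here within 0.01, so that its scale and direction were settled.

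Each array's processed intensity was divided by its 75th percentile, floored at 0.01 and put on the log2 scale, which understates changes near the floor. Spots with outlier flags were left out, and spots of a probe were averaged. The 27158 probes above background on both arrays of a genotype entered limma 3.58.1 (R 4.3.3; lmFit, eBayes), which was tested on simulated data, with Benjamini-Hochberg adjustment over all of them. Background shares were taken over 15410 named genes, by the brightest probe. The number of arrays limits the precision. Accessions named 69.6% of 39429 probes through RefSeq (GRCm38.p6). The methods' intensity-dependent Lowess step was not applied, since each array had 1 colour.

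The members, gene lists and tests were chosen with earlier results of these data known. Named genes were all members, pathway genes with an absolute log2 fold change of at least 0.5 and no overlap of the groups, the targeted gene, and markers whose list level stands beside a member. Alternatives covered normalization, background correction, floor, filters, variance model, test, replicate block, probe choice and each array left out. The planned normexp background correction failed on 1 array, and a second version was added after its values had been seen. 1 listed marker is not reported here.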

Additional observations from a re-analysis of the deposited data

How the results depend on the processing

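The 0 members called by limma stayed at 0 under every alternative run. The 3 members lower by over 1.5-fold with an unadjusted p became 0 with the percentile over detected probes and 0 with no filter. They became 0 with the methods' t-test, 0 with the replicate block, 1 at 2-fold and 6 with the fold alone. No count past this rule is given for the fits with 1 array left out. In those fits 1 genotype has a single array, which is assumed to vary like the 2 arrays of the other. The counts under the remaining settings with all arrays were 2 to 4. The cause of these changes was not tested. The members higher with no overlap numbered 5 with the mean over the probes of a gene. Shares over all named genes were taken only for the fit given in the results. The counts under the alternatives, here and below, therefore describe the settings and are not results about the members.

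The replicate numbers gave 2 pairs whose deviations correlated at 0.187. Whether arrays with the same number shared a day or handling was not given in the sources used here. With the replicate block, 0 members passed 1.5-fold with an unadjusted p.

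Normexp background correction was run first as planned. On S1pr2-/- replicate 1, with a local background of up to 9414 against a median of 29, its lowest corrected value was 475, against about 50 on the other arrays. It moved the median of all probes by 0.19, turned the ligand median to 0.18, left 7 members lower with no overlap, and reversed Cd27 (0.39), Cd70 (0.67), Fasl (0.12), Lta (0.35), Tnfrsf13b (0.070), Tnfrsf13c (0.14), Tnfrsf14 (0.30), Tnfsf11 (0.45), Tnfsf15 (0.42) and Tnfsf9 (0.010). After seeing these values, a version was added in which 2 spots with a local background over 10 times the array's median were given that median. It gave a ligand median of -0.18, 4 members past the rule, and a reversed sign for Tnfrsf14 (0.046).

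Other reversals were of small differences or followed 1 array. Tnfrsf14 was 0.023 with quantile normalization, and Tnfrsf1a was 0.0033 with cyclic loess, 0.061 with the mean over probes, 0.0061 with the percentile over detected probes and 0.010 with quantile normalization. With each array left out in turn, the log2 fold change took both signs for 10 genes, here with its lowest and highest value, Cd70 (-1.17 to 0.35), Fasl (-0.80 to 0.31), Tnf (-0.11 to 0.35), Tnfrsf13c (-1.33 to 0.018), Tnfrsf14 (-0.084 to 0.057), Tnfrsf1a (-0.041 to 0.035), Tnfrsf25 (-1.20 to 0.091), Tnfrsf26 (-0.13 to 0.17), Tnfrsf9 (-0.12 to 0.0091) and Tnfsf13b (-0.28 to 0.41).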
